A study of Rattus norvegicus with 6 samples.

Results

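The genes described here are the apoptosis machinery of hippocampal neurons in culture, namely the BCL2 family, the caspases, and the adaptors, receptors and inhibitors that work with them. Its 35 members were chosen by gene symbol, with earlier results of these data known. Of them, 33 were found among the 17066 genes of the deposited table. Bbc3 and Birc5 were not analysed here. By textbook role, 26 of the 35 were counted as pro-apoptotic and 9 as anti-apoptotic.

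Apoptosis in neurons runs mainly through the outer membrane of the mitochondrion. BH3-only proteins sense damage or loss of trophic support and bind the protective BCL2 proteins, which frees BAX and BAK to open the membrane. Cytochrome c then leaves the mitochondrion and joins APAF1 and caspase-9 in the apoptosome, which activates the executioner caspases, while the inhibitor of apoptosis proteins (IAPs) hold caspases in check. A separate route starts at death receptors on the cell surface, whose adaptors recruit caspase-8.

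Neurons were prepared from the hippocampus of Sprague-Dawley rat embryos at embryonic day 18. All cultures were infected with lentivirus on day 5 or 6 in vitro, carrying EGFP alone (EGFP, the control), cyclin Y fused to EGFP (CCNY-WT, overexpression) or a short hairpin RNA against cyclin Y together with EGFP (CCNY-shRNA, knockdown), with RNA harvested at day 14. There were 2 libraries a group, called replicates 1 and 2, so that EGFP and the viral infection were shared by all 3 groups and no uninfected culture was included. The viral backbone was FUGW, whose ubiquitin promoter is active in most cell types, and the share of infected cells is not given in the sources used here. Knockdown and overexpression rested on 1 construct each, and the sources used here do not say whether the 2 libraries of a group came from separate cultures, so the p-values measure only the spread between these libraries.

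Ccny, the targeted gene, had FPKM values (fragment counts scaled by transcript length and by the size of the library) of 43.1 and 42.3 for EGFP, 108 and 109 with overexpression and 5.98 and 6.19 with knockdown, in the directions the labels state. Depth is known only in relative terms, from the steps in which low FPKM values rise, and lay between 0.818 and 1.33 times that of EGFP replicate 1. CCNY-WT replicate 1 stood apart in 1 gene, Bc1, which was listed at 0 in the other 5 libraries and had an FPKM of 97548 there. All 12 neuronal markers were above an FPKM of 1, with a sum of 5878 to 6027 in every library. The 1 of them past the adjusted threshold was Gad2, an enzyme of GABA synthesis in inhibitory neurons, named after its values were seen, with an FPKM of 170.4 and 173.4 for EGFP, 175.7 and 180.7 with overexpression and 129.5 and 129.0 with knockdown (log2 change -0.41 from EGFP, SE 0.0494, adjusted p = 0.0226 in limma). That call was lost without either EGFP or either CCNY-WT library, with a change of -0.42 to -0.40. It was also lost without a trend in eBayes (adjusted p = 0.154 in limma) and with only the libraries compared (adjusted p = 0.0682 in limma). Gad1, the other marker of GABA synthesis, was 189.2 and 188.4 for EGFP, 203.7 and 197.6 with overexpression and 183.3 and 187.1 with knockdown. Of 12 microglial markers 0 had a mean FPKM of 1 or more, Aif1 and Cx3cr1 were at 0 throughout, and their sum was 0.546 to 1.59. Astrocyte markers (9 measured, all above 1) summed to 540.3 and 580.3 for the EGFP pair, 573.2 and 567.3 for the CCNY-WT pair and 472.1 and 544.5 for the CCNY-shRNA pair. Vascular and meningeal markers, of which 2 of 10 reached a mean FPKM of 1, summed to 64.4 to 76.1. Nearly all of that sum was Lum (46.0 to 59.7) and Dcn (13.2 to 17.0). The others stayed under 1 in every library, with Cldn5 and Cdh5 at 0. These are bulk cultures, in which fewer cells of a type and less RNA per cell cannot be told apart.

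Of the 33 genes, 23 were tested, since they reached an FPKM of 1 in 2 or more libraries (17 pro-apoptotic and 6 anti-apoptotic), along with 10188 genes in all. FPKM is scaled by transcript length, and on that basis levels were set side by side between genes. Whether other properties of a transcript shift its FPKM was not tested, so the order is one of listed values. Cycs, which encodes cytochrome c, had the highest level, with a mean FPKM in EGFP of 345.6 ± 18.004 (SD, n = 2), above 97.4% of the genes tested. Bnip3 came next, at 148.7 ± 2.58, and the protective Bcl2l2 and Bcl2l1 followed at 67.7 ± 1.39 and 60.9 ± 2.31. The EGFP values of these 4 genes did not overlap. Bnip3l, Bad and Bax lay close together between 45.2 and 48.8, and neighbours among them overlapped. Below Diablo, at 37.1 ± 3.33, the 8 genes from Birc2 to Xiap formed a run from 14.9 down to 8.53 in which each neighbour overlapped the next. Fas (1.91 ± 0.626) and Bcl2 (2.66 ± 0.637) were the lowest of the 23. The median level of the tested members in EGFP was 11.2, against 17.0 for all genes tested.

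**Figure D1:**
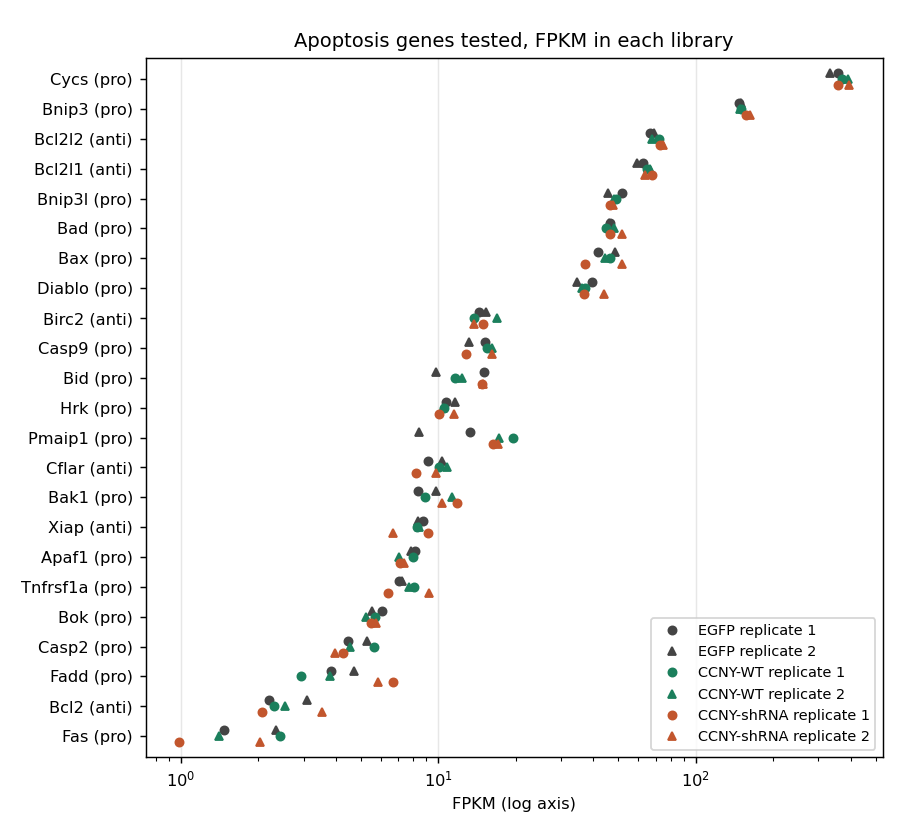
FPKM (log axis) of the 23 tested apoptosis genes in each of the 6 libraries, ordered by the EGFP mean, with circles for replicate 1, triangles for replicate 2 and colours for the group; pro or anti marks the textbook role. The members span from Fas (1.91 in EGFP) to Cycs (345.6). The 3 colours are offset vertically within a row, and for most rows they lie close together along the log axis.

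The comparison of CCNY-shRNA with EGFP asked whether loss of cyclin Y moved the apoptosis machinery. No member passed an adjusted p of 0.05 in limma, where 76 of the 10188 genes did (0.746%). The smallest adjusted p of a member was 0.144, that of Pmaip1. At an unadjusted p under 0.05 there were 2 of 23 members, Pmaip1 and Fadd, both higher in CCNY-shRNA, against 18.6% of all genes tested. The study's criterion on fold change, a log2 difference of 0.33, was applied here to mean log2 FPKM without a test. By that measure Pmaip1 and Fadd were higher and Fas was lower, while 5.52% of all genes tested were higher and 7.59% lower. The study also used cuffdiff to select its genes. Its lists for the knockdown hold Tradd and Bcl2l11, which were not tested here, so this measure does not reproduce its selection.

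The 2 CCNY-shRNA libraries lay entirely above both EGFP libraries for 6 members (Bcl2l1, Bcl2l2, Bak1, Pmaip1, Bnip3 and Fadd) and entirely below for 2 (Casp2 and Apaf1). Over all genes tested, 23.9% lay entirely above and 24.5% entirely below, and the 8 of 23 members were not more than that share. The median log2 change of the 23 members was 0.05, against 0 over all genes tested, with 13 members above 0 and 10 below.

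For CCNY-WT against EGFP, the question was whether excess cyclin Y did the same. No member passed the adjusted threshold, which of all genes only Ccny itself passed (0.00982% of genes), and the smallest adjusted p of a member was 0.617, again that of Pmaip1. Pmaip1 was the 1 member with an unadjusted p under 0.05, where 6.83% of all genes were. By the study's difference of 0.3 in mean log2 FPKM, Pmaip1 was higher and Fadd lower, against 4.59% and 3.76% of all genes. The groups did not overlap for 5 members higher in CCNY-WT (Bcl2l1, Pmaip1, Casp9, Cycs and Tnfrsf1a) and 2 lower (Hrk and Fadd), against 20.3% and 19.2% of all genes. Both comparisons share the EGFP libraries, so their values for a gene are not independent of each other.

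Set directly against each other, CCNY-shRNA and CCNY-WT gave no member past the adjusted threshold either, while 0.216% of genes passed it. Fadd was the 1 member with an unadjusted p under 0.05 (12.2% of genes).

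The precision of the test varied with the level of the gene. Its standard error (SE) on the log2 scale ran from 0.05 for Bnip3 to 0.413 for Fas, with a median of 0.136 over the members. The unadjusted 95% interval of the log2 change lay within 0.5 of 0 on both sides (1.41-fold) for 14 of the 23 members in CCNY-shRNA and for 17 in CCNY-WT. For Bcl2, Bak1, Pmaip1, Fas, Tnfrsf1a and Fadd it reached past that size in both comparisons, so the data leave room for a change of that size in each of these 6.

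**Figure D2:**
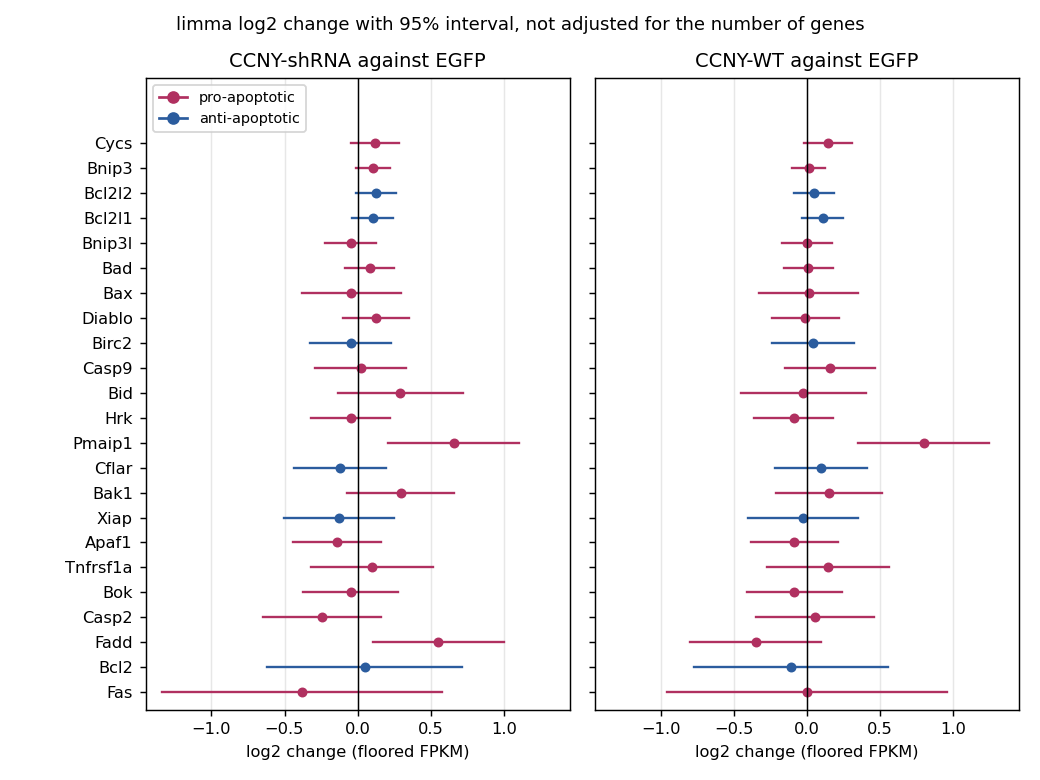
Log2 change from EGFP (floored FPKM) of the 23 tested members in CCNY-shRNA (left) and CCNY-WT (right), as points with unadjusted 95% limma intervals, in the order of the EGFP level, coloured by role. Only the intervals of Pmaip1 (both panels) and Fadd (left panel) do not include 0, and none of these passed the adjusted threshold.

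Among the anti-apoptotic BCL2 proteins, which bind and restrain BAX, BAK and the BH3-only proteins, Bcl2l1 (BCL-XL) and Bcl2l2 (BCL-W) carried nearly all of the measured FPKM. Bcl2l1 had FPKM values of 62.6 and 59.3 (EGFP), 64.6 and 66.6 (CCNY-WT) and 67.4 and 63.6 (CCNY-shRNA). Both cyclin Y groups thus lay above EGFP, by log2 changes of 0.11 in CCNY-WT (SE 0.0606, adjusted p = 0.785 in limma) and 0.10 in CCNY-shRNA (SE 0.0606, adjusted p = 0.401 in limma), with intervals that end at 1.19-fold and 1.18-fold. Bcl2l2 had FPKM values of 66.7 and 68.7 for EGFP, 72.3 and 67.6 with overexpression and 72.7 and 75.0 with knockdown. It was highest in CCNY-shRNA, with a log2 change of 0.13 (SE 0.0588, adjusted p = 0.305 in limma), and its CCNY-WT libraries overlapped those of EGFP. Bcl2, the founding member of the family, was low, at 2.21 and 3.11 for the EGFP pair, 2.31 and 2.55 for the CCNY-WT pair and 2.07 and 3.53 for the CCNY-shRNA pair. The spread within CCNY-shRNA was wider than any difference between the groups, and Bcl2l1 exceeded Bcl2 in FPKM by 18.03 to 32.5 times in single libraries. Mcl1, a protective protein used by most cells, was listed at 0 in all 6 libraries, as were 3583 genes of the table, and no level can be given for it.

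The effectors BAX, BAK and BOK form the pores of the outer mitochondrial membrane, and Bax was by far the highest of their 3 genes. Its FPKM was 41.6 and 48.9 (EGFP), 46.4 and 44.4 (CCNY-WT) and 37.1 and 51.6 (CCNY-shRNA). The CCNY-shRNA libraries were the lowest and the highest of the 6, and the mean log2 change was -0.04 in CCNY-shRNA (SE 0.146, adjusted p = 0.914 in limma) and 0.01 in CCNY-WT (adjusted p = 0.994 in limma). Bak1 had FPKM values of 8.31 and 9.83 for EGFP, 8.90 and 11.3 with overexpression and 11.8 and 10.4 with knockdown. Its CCNY-shRNA values lay above both EGFP values, with a log2 change of 0.29 (SE 0.157, adjusted p = 0.361 in limma) and an interval from 0.953-fold to 1.58-fold. Bok stayed between 5.25 and 6.05 in all libraries, and its groups overlapped.

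Of the 8 BH3-only genes, which start the mitochondrial route, 4 were tested, and Bad was the highest of them. Bad, whose protein is held inactive by survival kinases, ran from 45.0 to 51.7 in FPKM, and the ranges of the 3 groups overlapped. Bid, which caspase-8 cleaves to link the death receptors to mitochondria, differed more within EGFP (15.1 and 9.84) than between the groups, being 11.6 and 12.4 with overexpression and 14.8 and 15.0 with knockdown. Hrk (Harakiri), a BH3-only gene used mainly by neurons, was 10.7 and 11.6 for the EGFP pair, 10.5 and 10.4 for the CCNY-WT pair and 10.1 and 11.5 for the CCNY-shRNA pair. Its CCNY-WT values lay just under both EGFP values, at a log2 change of -0.09 (SE 0.116, adjusted p = 0.911 in limma).

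Pmaip1, which encodes NOXA, a BH3-only protein that binds MCL1 and is induced by p53 and by stress signals, had the lowest p of all members against EGFP. Its FPKM was 13.3 and 8.45 (EGFP), 19.6 and 17.3 (CCNY-WT) and 16.4 and 17.1 (CCNY-shRNA). Both EGFP values were below all 4 values of the cyclin Y groups, and they also lay farthest apart. The group means were 10.9 ± 3.45 (SD, n = 2), 18.5 ± 1.65 and 16.7 ± 0.493. The log2 change was 0.80 in CCNY-WT (SE 0.194, adjusted p = 0.617 in limma) and 0.66 in CCNY-shRNA (SE 0.194, adjusted p = 0.144 in limma), with intervals of 1.27-fold to 2.37-fold and 1.15-fold to 2.15-fold. Between CCNY-shRNA and CCNY-WT it was -0.14 (SE 0.194, adjusted p = 0.830 in limma). The size depended on EGFP replicate 2, without which the changes were 0.47 in CCNY-WT and 0.33 in CCNY-shRNA, and without EGFP replicate 1 they were 1.12 and 0.98. The study names Pmaip1 among the apoptosis genes it chose on these same libraries, so its direction is not independent evidence.

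**Figure D3:**
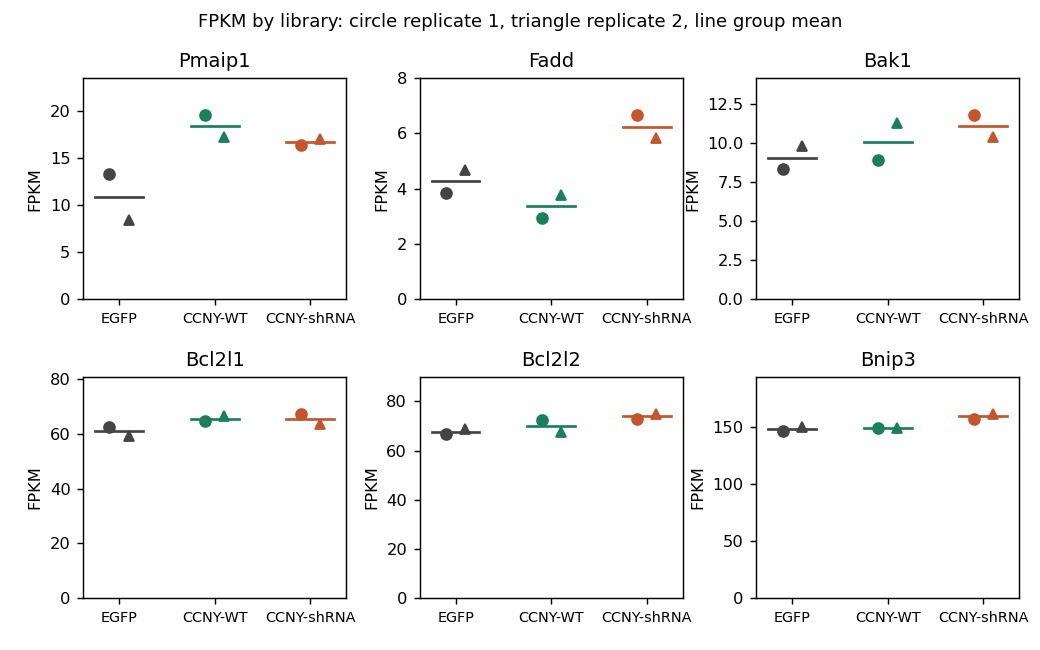
FPKM (linear axis from 0) of Pmaip1, Fadd and the other 4 members whose CCNY-shRNA libraries both lay above EGFP (Bak1, Bcl2l1, Bcl2l2 and Bnip3), by group, with the circle for replicate 1, the triangle for replicate 2 and the line for the group mean. Pmaip1 is lowest in EGFP (8.45 and 13.3) and Fadd is highest in CCNY-shRNA (6.67 and 5.82). Bcl2l1, Bcl2l2 and Bnip3 differ between groups by little relative to their level, and Bak1 by more (mean 9.07 in EGFP and 11.1 in CCNY-shRNA).

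Pmaip1 and Fadd were the only members with an unadjusted p under 0.05 in a comparison, and the 250 bases before the annotated start of each are shown for that reason, from RefSeq on the rat build GRCr8. That build is later than the rn4 build of the deposited values, so the coordinates apply to GRCr8 alone. Pmaip1 is shown at chr18:62255720-62255969, plus strand, and Fadd at chr1:209174930-209175179, minus strand. Capitals mark matches, on either strand, to the letters GGGCGG, known as a GC box, or to the letters TGACG, the core of the cyclic AMP response element. The full element, TGACGTCA, contains the core.
Pmaip1: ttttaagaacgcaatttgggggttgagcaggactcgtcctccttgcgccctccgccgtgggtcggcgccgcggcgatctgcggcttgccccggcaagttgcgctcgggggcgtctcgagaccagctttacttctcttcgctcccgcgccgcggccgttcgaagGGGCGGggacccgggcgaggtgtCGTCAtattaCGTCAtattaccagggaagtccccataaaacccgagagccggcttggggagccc
Fadd: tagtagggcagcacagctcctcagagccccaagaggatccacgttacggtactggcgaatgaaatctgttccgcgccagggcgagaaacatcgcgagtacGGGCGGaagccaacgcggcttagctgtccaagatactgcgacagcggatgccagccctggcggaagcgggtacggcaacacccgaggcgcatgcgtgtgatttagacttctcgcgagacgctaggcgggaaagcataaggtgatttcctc
Each window held 1 GGGCGG, at positions -87 to -82 for Pmaip1 and -150 to -145 for Fadd, counted back from the start. Pmaip1 also held TGACG on the other strand at 2 places, -64 to -60 and -54 to -50, where it reads CGTCA. Of 27457 rat windows of the same length, 32.4% held GGGCGG and 19% held TGACG. The CCAAT box was searched in the same way and is in neither window, against 34.3% of all windows. The same holds for the TATA box (TATAAA), which 13.1% of windows held, and for the full response element, which 1.7% held. Among the 19 tested members that had a window, 12 held GGGCGG and 4 held TGACG. These matches describe letters only, and binding was not measured.

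The other 3 BH3-only members in the table were not tested, and 2 of them, Bcl2l11 and Bmf, had low values. Bcl2l11 (BIM), a death signal of neurons deprived of growth factors, had FPKM values of 0.341 and 0.781 for EGFP, 0.719 and 0.328 with overexpression and 1.42 and 0.636 with knockdown. Only CCNY-shRNA replicate 1 passed an FPKM of 1, the other library of that group lay inside the range of EGFP. It too is among the genes the study chose on these libraries. Bmf ran from 0.0766 to 0.405, which by the steps of its values was at least 3 and 5 fragments for EGFP, 2 and 3 for CCNY-WT and 3 and 1 for CCNY-shRNA. Bik was listed at 0 in every library, as was Mcl1, and no level can be given for it.

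BNIP3 and NIX, encoded by Bnip3 and Bnip3l, are BH3-like proteins of the outer mitochondrial membrane that also mark mitochondria for removal. Bnip3 had FPKM values of 146.8 and 150.5 for the EGFP pair, 149.9 and 149.3 for the CCNY-WT pair and 157.3 and 162.2 for the CCNY-shRNA pair. Its CCNY-shRNA values lay above the other 4, at a log2 change of 0.10 (SE 0.05, adjusted p = 0.312 in limma), and its interval ended at 1.16-fold. Bnip3l was spread more within EGFP (51.9 and 45.6) than across the 4 other libraries, which lay between 46.4 and 49.0.

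Downstream of the mitochondrion, Cycs made up 36.5% to 39.5% of the summed FPKM of all members in each library. Its FPKM was 358.3 and 332.8 (EGFP), 370.8 and 390.1 (CCNY-WT) and 357.0 and 395.1 (CCNY-shRNA). Both CCNY-WT values were above EGFP, by a log2 change of 0.14 (SE 0.0709, adjusted p = 0.761 in limma), while CCNY-shRNA overlapped EGFP. Cytochrome c also serves the respiratory chain, so its level is not that of the death pathway alone. Apaf1, the scaffold of the apoptosome, was 8.11 and 7.85 for EGFP, 7.99 and 7.05 with overexpression and 7.12 and 7.35 with knockdown. Its CCNY-shRNA values were under both EGFP values, at a log2 change of -0.14 (SE 0.129, adjusted p = 0.603 in limma). Diablo (SMAC), which displaces IAPs from caspases, lay between 34.7 and 44.0, and its groups overlapped.

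Of the caspases among the members, Casp9 and Casp2 reached the tested range. Casp9, the initiator in the apoptosome, had FPKM values of 15.2 and 13.2 for the EGFP pair, 15.5 and 16.1 for the CCNY-WT pair and 12.8 and 16.2 for the CCNY-shRNA pair. It lay just above EGFP in CCNY-WT (log2 change 0.15, SE 0.134, adjusted p = 0.863 in limma) and on both sides of EGFP in CCNY-shRNA. Casp2, an initiator linked to DNA damage, was 4.47 and 5.29 (EGFP), 5.62 and 4.53 (CCNY-WT) and 4.25 and 3.99 (CCNY-shRNA). Its CCNY-shRNA values were the lowest of the 6, at a log2 change of -0.24 (SE 0.175, adjusted p = 0.501 in limma).

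The executioner Casp6 was present only at 0.124 to 0.521 FPKM in any library. Casp8, the initiator of the death receptor route, rested on single fragments, with 1 and 0 for EGFP, 1 and 1 with overexpression and 1 and 2 with knockdown as the smallest whole numbers that give its FPKM. Casp12 had 4 fragments over all libraries by the same reading. Casp1, the inflammatory caspase, reached an FPKM of 0.302 in EGFP replicate 1 and was listed at 0 elsewhere. No whole fragment numbers were found for Casp6 and Casp1. At levels this low none of these genes was tested, and no difference between groups is read from their values.

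Among the IAPs, Xiap and Birc2 were tested, and the groups of both overlapped. Xiap, the IAP that binds caspases directly, was 8.73 and 8.34 for the EGFP pair, 8.30 and 8.41 for the CCNY-WT pair and 9.14 and 6.68 for the CCNY-shRNA pair, so that the knockdown libraries held both the highest and the lowest value. Birc2 (cIAP1), a ubiquitin ligase in TNF receptor signalling, ranged from 13.8 to 16.9 with overlapping groups. Birc3 (cIAP2) rested on 8 fragments over all libraries, with 0 to 2 in each.

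In the death receptor route, Fadd was the member that differed most between the cyclin Y groups. FADD is the adaptor that brings caspase-8 to Fas. Its FPKM was 3.85 and 4.69 (EGFP), 2.92 and 3.79 (CCNY-WT) and 6.67 and 5.82 (CCNY-shRNA). The 3 groups did not overlap, in the order CCNY-WT, EGFP, CCNY-shRNA. The gap between CCNY-WT and EGFP was narrow, from 3.79 to 3.85. Over all genes tested, 19.2% lay entirely below EGFP in CCNY-WT and 23.9% entirely above it in CCNY-shRNA. The share of genes with all 3 groups apart was not computed. In that order, the means of Fadd were 3.36 ± 0.613 (SD, n = 2), 4.27 ± 0.595 and 6.25 ± 0.598. The log2 change from EGFP was 0.55 in CCNY-shRNA (SE 0.193, adjusted p = 0.186 in limma) and -0.35 in CCNY-WT (SE 0.193, adjusted p = 0.782 in limma). Between CCNY-shRNA and CCNY-WT directly it was 0.91 (SE 0.193, adjusted p = 0.149 in limma), with an interval from 1.37-fold to 2.55-fold. Markers of dividing cells, of which 2 of 10 reached a mean FPKM of 1, had a summed FPKM of 8.47 and 7.36 for EGFP, 6.72 and 8.63 with overexpression and 10.1 and 8.60 with knockdown. Those of the oligodendrocyte lineage, of which 6 of 10 reached that level and Sox10 was at 0, summed to 56.0 and 55.0 (EGFP), 57.7 and 52.9 (CCNY-WT) and 49.5 and 47.5 (CCNY-shRNA). Single markers of dividing cells went different ways. Aurka was 1.24 and 1.42 (EGFP) against 2.45 and 2.08 (CCNY-shRNA), while Ccnb1 was 1.72 and 1.63 against 1.02 and 1.202. Their part in the Fadd values was not tested. Fadd is another gene that the study chose on these libraries.

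The other death receptor genes showed no such order. Fas was 1.47 and 2.35 for the EGFP pair, 2.43 and 1.41 for the CCNY-WT pair and 0.986 and 2.03 for the CCNY-shRNA pair, and although its log2 change in CCNY-shRNA was -0.38 (SE 0.413, adjusted p = 0.675 in limma), the 3 groups overlapped. Without CCNY-shRNA replicate 1 that change was 0.13, and without CCNY-shRNA replicate 2 it was -0.89. Tnfrsf1a, the main TNF receptor, was 7.04 and 7.24 (EGFP), 8.07 and 7.73 (CCNY-WT) and 6.37 and 9.19 (CCNY-shRNA). Its CCNY-WT values were above EGFP by a log2 change of 0.14 (SE 0.180, adjusted p = 0.911 in limma), inside the range of the CCNY-shRNA pair. Cflar (c-FLIP), which blocks caspase-8 at the receptor, overlapped EGFP (9.16 and 10.4) in both comparisons. Its values with knockdown (8.17 and 9.80) were both below those with overexpression (10.1 and 10.8), by a log2 change of -0.22 (SE 0.136, adjusted p = 0.578 in limma).

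Tradd, the adaptor of the TNF receptor, never reached an FPKM of 1 and was not tested. Its values were 0.293 and 0.940 for EGFP, 0.776 and 0.157 with overexpression and 0.179 and 0.127 with knockdown. The smallest whole numbers behind them were 2 and 7 fragments, 7 and 1, and 1 and 1. Summed over the 2 libraries this gave 9 fragments in EGFP (exact Poisson 95% interval 4.12 to 17.1), 8 in CCNY-WT (3.45 to 15.8) and 2 in CCNY-shRNA (0.242 to 7.22). These intervals rest on the smallest numbers and cover counting error only. They overlap, but the true numbers can be larger, so no conclusion is drawn from the overlap. The replicates of EGFP lay far apart, as did those of CCNY-WT. Tradd, too, is on the study's lists of genes chosen on these libraries.

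Setting the pro-apoptotic against the anti-apoptotic members gave no separation between the 2 roles. In CCNY-shRNA the median log2 change was 0.08 over the 17 tested pro-apoptotic members (from -0.38 for Fas to 0.66 for Pmaip1, 10 above 0 and 7 below), and over the 6 anti-apoptotic ones it was -7.8e-04 (from -0.13 for Xiap to 0.13 for Bcl2l2, 3 above 0 and 3 below). In CCNY-WT the medians were 0.01 over the pro-apoptotic members (9 above 0 and 8 below) and 0.04 over the anti-apoptotic ones (4 above 0 and 2 below). The medians over all genes tested were 0 and 0.0041. Without CCNY-shRNA replicate 2, the pro-apoptotic median in CCNY-shRNA was -0.07.

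The 2 roles can also be set against each other within each library. The summed FPKM of Bcl2, Bcl2l1 and Bcl2l2 was 131.5 and 131.1 for EGFP, 139.2 and 136.8 for CCNY-WT, and 142.2 in each CCNY-shRNA library. The BH3-only sum was 86.4 and 77.1 for EGFP, 87.6 and 88.9 for CCNY-WT, and 89.7 and 95.9 for CCNY-shRNA. EGFP was thus the lowest by both sums, the protective and the opposing one, with no overlap. For the BH3-only sum the gap was narrow, from 86.4 in EGFP to 87.6 in CCNY-WT. Of the tested BH3-only members, only Pmaip1 lay entirely above EGFP in either cyclin Y group. Among single genes tested, 20.3% in CCNY-WT and 23.9% in CCNY-shRNA lay entirely above EGFP. The sum of Bax, Bak1 and Bok was 56.0 and 64.2 for EGFP, 61.0 in each CCNY-WT library, and 54.4 and 67.8 for CCNY-shRNA. The ratio of the protective to the effector sum was 2.195 ± 0.217 (SD, n = 2) for EGFP, 2.26 ± 0.0261 for CCNY-WT and 2.36 ± 0.365 for CCNY-shRNA, with the single values of CCNY-shRNA, 2.61 and 2.097, on both sides of those of CCNY-WT. As a ratio, the BH3-only sum made up 0.657 and 0.588 of the protective sum for EGFP, 0.629 and 0.650 with overexpression and 0.630 and 0.675 with knockdown, and the groups overlapped. Mcl1, listed at 0, and Bbc3, which was not analysed here, are missing from these sums.

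**Figure D4:**
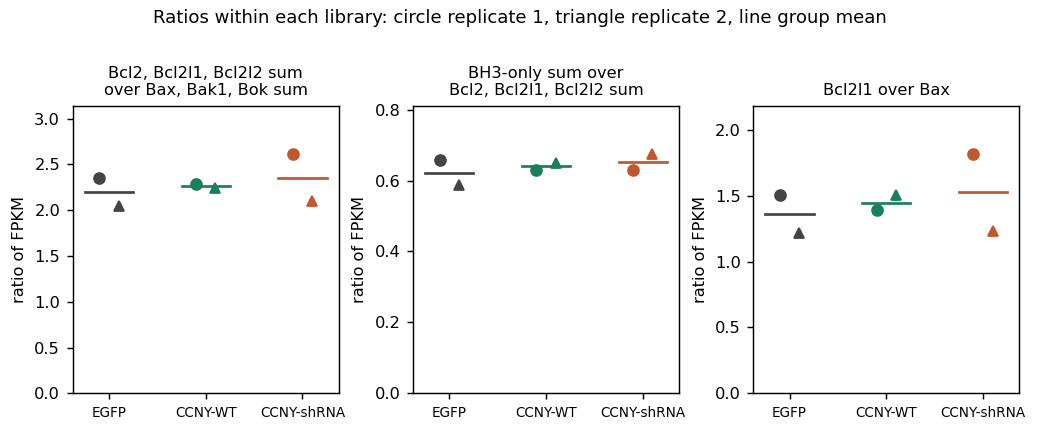
Ratios of FPKM within each library (axes from 0) for the protective over the effector BCL2 genes, the BH3-only over the protective genes, and Bcl2l1 over Bax, by group, with the circle for replicate 1, the triangle for replicate 2 and the line for the group mean. The groups overlap in all 3 panels, and in the first and the last the CCNY-shRNA replicates lie farthest apart (2.61 and 2.097, and 1.82 and 1.23).

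A wider list of 113 other apoptosis genes, among them p53 targets, death domain proteins, BAG proteins and stress kinases, had 84 genes that could be tested. In CCNY-shRNA 0 rose and 1 fell past the adjusted threshold, which 0.746% of all genes passed, and 4 were higher and 5 lower at an unadjusted p under 0.05 (10.7% of the 84, against the 18.6% of all genes given above). The 1 gene was Faim2, which encodes a neuronal inhibitor of Fas signalling. Its FPKM was 88.1 and 96.1 for the EGFP pair, 82.2 and 82.3 for the CCNY-WT pair and 71.4 and 69.7 for the CCNY-shRNA pair. The 3 groups thus did not overlap and CCNY-WT lay in between, though the share of genes with all 3 groups apart was not computed. The log2 change of Faim2 was -0.38 in CCNY-shRNA (SE 0.0598, adjusted p = 0.0439 in limma) and -0.16 in CCNY-WT (SE 0.0598, adjusted p = 0.725 in limma). The call of Faim2 was close to the threshold. It was lost with any 1 library left out (adjusted p from 0.0515 without CCNY-shRNA replicate 1 to 0.279 without EGFP replicate 2, with limma in each case), although the change then stayed between -0.45 and -0.32. In CCNY-WT 0 of the 84 passed the adjusted threshold, with 4 higher and 1 lower at an unadjusted p under 0.05 (5.95% of the 84, against 6.83% of all genes). The median log2 change of the list was 0.0074 in CCNY-shRNA and -0.0052 in CCNY-WT.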

How the data were processed

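RNA-seq was analysed in 6 libraries of infected rat hippocampal neurons, 2 each for EGFP, CCNY-WT and CCNY-shRNA. The authors mapped 150-bp paired-end reads to rn4 with TopHat 2 and deposited 1 FPKM value per gene and library, computed with Cufflinks. The submitters' processing notes name SAMtools 0.1.19, Bowtie2 2.1.0, Cufflinks 2.2.1 and R 3.1.0. Which annotation was used, and whether libraries were rescaled against each other, is not given in the sources used here.

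Values under 1 were set to 1 before taking log2 of the FPKM. Differences were tested with limma 3.58.1 (lmFit, contrasts.fit, eBayes with a trend) in R 4.3.3 on all 6 libraries together, for the 10188 genes that reached an FPKM of 1 in 2 libraries or more, with Benjamini-Hochberg adjustment over all of them. Log2 changes are on the floored scale, which understates changes of low genes. With 2 libraries a group, an exact permutation test of 1 gene could not reach 0.05. The code was tested on simulated data.

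The table holds no counts. Relative depth was taken from the most frequent ratio of FPKM between libraries over genes with a highest FPKM under 0.3. Fragment numbers are the smallest whole numbers up to 30 within a tolerance of 0.02. They were found for 98.4% of 1113 such genes that were above 0 in 2 or more libraries. Bmf (up to 0.405) and Tradd (up to 0.940) exceeded the limit of 0.3, so this share does not cover them. How often whole numbers would be found for unrelated values was not tested. True numbers can be larger.

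The members and lists were chosen with earlier results of these data known. Members were described in full where the groups did not overlap or a log2 change of 0.33 (CCNY-shRNA) or 0.3 (CCNY-WT) was reached. Bax and Bcl2 were added for their roles, and genes of the wider apoptosis list were named only past the adjusted threshold. Replicate numbers were checked for pairing, of which little sign was seen. Promoter windows were matched by symbol. Tables were handled with Python 3.11.15 and pandas 2.3.3, and figures drawn with matplotlib 3.10.9.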

Additional observations from a re-analysis of the deposited data

How the results depend on the processing

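With 15 alternatives for each of the 3 comparisons (the offset, the filter, the scaling, the spread, the samples in the fit, a replicate block and leaving out each library), no member passed the adjusted threshold in any of them (limma throughout), and the smallest adjusted p of a member under any alternative was 0.0837, for Pmaip1 in CCNY-shRNA without EGFP replicate 1. In fits without a library the lone library of a group was taken to vary like the others. The count of members past the log2 threshold was 3 in CCNY-shRNA and 2 in CCNY-WT. It was 0 in both at a threshold of 1, 1 in CCNY-WT with log2(FPKM + 1), and from 2 to 5 and from 2 to 4 with each library left out. With each library left out, the pro-apoptotic median ran from -0.0684 to 0.187 in CCNY-shRNA and from -0.0175 to 0.0269 in CCNY-WT, and the anti-apoptotic median from -0.0954 to 0.0520 in CCNY-shRNA. The change of Bcl2 then ran from -0.34 to 0.43 in CCNY-shRNA and from -0.36 to 0.14 in CCNY-WT, that of Bax from -0.28 to 0.20 and from -0.11 to 0.13, and that of Fas in CCNY-shRNA from -0.89 to 0.13, so none of these has a settled direction.

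Over all 23 members, the sign of the change turned under at least 1 alternative for 12 in CCNY-shRNA and 14 in CCNY-WT. With all libraries kept this was 0 and 3. Pmaip1 and Fadd kept their sign under every alternative.

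The replicate numbers showed little sign of pairing. The correlation of the replicate differences was 0.053 between EGFP and CCNY-WT, 0.0377 between EGFP and CCNY-shRNA, and 0.0538 between CCNY-WT and CCNY-shRNA. With 1 difference a group, this check cannot tell whether libraries of the same number shared a culture. With the replicate block 0 members were called in any comparison, and the genes called in CCNY-shRNA numbered 39 in place of 76. Counts of all genes called in CCNY-shRNA ranged from 1 without a trend in eBayes to 108 with the filter on mean FPKM, with 16 without a filter, 15 with only the libraries compared, 1 without either EGFP library, 18 and 26 without CCNY-WT replicates 1 and 2, and 86 and 39 without CCNY-shRNA replicates 1 and 2. Faim2 also lost its call with the replicate block (adjusted p = 0.0622 in limma), with only the libraries compared (0.109), and with 3 other settings that kept all libraries (up to 0.176). Of the 10 members that were not tested, 2 are listed at 0 in every library, for which the cause was not tested.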
